A study of Mus musculus with 28 samples.

Results

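The 10 acute phase genes described here were followed through mouse liver, pancreas and lung after acute expression of human A3B: the serum amyloid genes Saa1, Saa2 and Saa3, Lcn2, the orosomucoid genes Orm1, Orm2 and Orm3, Hp, Hpx and Apcs. They were chosen by name as classical acute phase proteins of the mouse, with earlier results of these data known. They are 10 of the 35928 gene symbols of the liver and pancreas files and 10 of the 24849 rows of the liver and lung table.

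The acute phase response is the change in plasma proteins that follows infection, injury or inflammation. Cytokines such as interleukin-6, interleukin-1 and tumour necrosis factor act on hepatocytes, where STAT3, NF-kB and C/EBP factors raise transcription of the positive acute phase genes, while genes for albumin and several carrier proteins fall. Liver is the main source, but Lcn2 and Saa3 are also made by epithelial cells, macrophages and adipocytes, and Lcn2 and Hp are made by maturing neutrophils.

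A3B mice carried TetO-A3B-tGFP, a human APOBEC3B transgene joined to turboGFP and switched on by doxycycline, together with CAGs-rtTA3, whose promoter drives the transactivator in most tissues. All mice were young adults, the labels give food with 625 ppm doxycycline for all of them, and controls were by design littermates without the pair of transgenes. The kallisto set held 16 samples after 10 days, namely livers of 6 A3B mice (44, 48, 49, 125, 137 and 153) and 2 controls (45 and 168), and pancreases of 6 A3B mice (44, 49, 53, 125, 137 and 153) and the same 2 controls. The gene-table set held 12 samples, with livers of A3B mice 23 and 28 at 14 days and 70 at 10 days, lungs of A3B mice 69, 70 and 74 at 10 days, control livers 11, 91 and 92 and control lungs 87, 88 and 91. The labels give 15 days for these 6 control samples, whereas the study's list gives no doxycycline for some mice of these numbers. With A3B samples at 10 or 14 days, doxycycline feeding and A3B cannot be told apart in the gene-table comparisons. For controls 45 and 168 of the kallisto set the labels and the list give 10 days of doxycycline, whereas a figure legend of the study describes the pair of control animals of its liver and pancreas sequencing as without it. If that holds, doxycycline and A3B cannot be told apart in the kallisto comparisons. A3B mice of the kallisto set were taken at the humane end point and their controls were not, so the transgene and the terminal state of the animals cannot be told apart.

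Groups follow the sample titles. The genotype labels of A3B pancreases 44 and 137 name the A3B transgene alone, and those of control pancreases 45 and 168 name both transgenes, the reverse of the labels of the livers of the same mice. Control liver 11 is labelled with both transgenes, control lung 87 with CAGs only and the other controls with A3B only. In the gene-table set the human transgene was at 705 to 1705 TPM (a transcript level scaled to length and to the library total) in A3B livers, at 90.6 to 281 TPM in A3B lungs and at 0.53 TPM or less in all 6 controls. The transgene is not in the mouse transcripts of the kallisto set. Total estimated counts were 65161064 to 98780481 in A3B livers, 104834346 and 118976013 in control livers, 74836907 to 87633469 in A3B pancreases, and 87288183 and 95604352 in control pancreases. The 10 most abundant genes held 59.7% and 62.4% of the counts of the control pancreases and 12.1% to 20.6% of those of the A3B pancreases, so TPM values of most genes are higher in A3B pancreas. The Y-linked gene Ddx3y was over 1 TPM in 3 of 6 A3B mice and 1 of 2 controls of each kallisto tissue, and in control liver 11 only among the gene-table samples.

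The genes lie in clusters of copies, which bears on how far their reads can be told apart. In GRCm38, Saa3 (chr7:46711998-46715700), Saa1 (chr7:46740497-46742980) and Saa2 (chr7:46751790-46754313) are neighbours, as are Orm1 (chr4:63344560-63348163), Orm3 (chr4:63356162-63359511) and Orm2 (chr4:63362449-63365878). Lcn2 is at chr2:32384633-32388252, Hp at chr8:109575128-109579172, Hpx at chr7:105591613-105600137 and Apcs at chr1:172893961-172895041. Of the distinct 31-base words in Saa1 transcripts 46.0% also occur in Saa2 and 1.12% in Saa3. Orm1 shares 27.5% of its words with Orm2 and 4.70% with Orm3.

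RefSeq promoters of GRCm38.p6, from 250 bases before to 50 after the start, matched 8 of the 10 genes. They were searched on both strands for TTGCNNAA (C/EBP), TTCNNNGAA (STAT3) and GGGA followed after any 2 bases by TTCC (NF-kB). The C/EBP letters were in 7 of the 8, against 10.8% of 32851 promoters of that length. The STAT3 letters were in Apcs alone of the 8, against 8.30% of all promoters, and the NF-kB letters were in none of the 8, against 1.47%. A match describes these letters in this window and not a bound site. The 5 promoters below are those of the genes that the results turn on, 5′ to 3′ on the gene's strand, with the C/EBP match in capitals. They are Lcn2 (chr2:32387690-32387989, minus), Saa1 (chr7:46742931-46743230, minus), Saa2 (chr7:46751583-46751882, plus), Saa3 (chr7:46715627-46715926, minus) and Orm2 (chr4:63362199-63362498, plus).
Lcn2: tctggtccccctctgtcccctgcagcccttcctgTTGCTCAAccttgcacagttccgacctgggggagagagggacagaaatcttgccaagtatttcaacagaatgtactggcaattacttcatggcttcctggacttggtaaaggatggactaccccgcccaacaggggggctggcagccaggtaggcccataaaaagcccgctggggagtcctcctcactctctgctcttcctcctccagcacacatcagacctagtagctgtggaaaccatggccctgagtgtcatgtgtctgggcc
Saa1: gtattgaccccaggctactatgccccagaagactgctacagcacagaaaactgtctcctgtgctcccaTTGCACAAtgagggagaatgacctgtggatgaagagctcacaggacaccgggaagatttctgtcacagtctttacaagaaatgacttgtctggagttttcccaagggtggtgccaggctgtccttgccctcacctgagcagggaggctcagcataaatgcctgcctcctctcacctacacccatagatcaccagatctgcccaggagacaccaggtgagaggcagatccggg
Saa2: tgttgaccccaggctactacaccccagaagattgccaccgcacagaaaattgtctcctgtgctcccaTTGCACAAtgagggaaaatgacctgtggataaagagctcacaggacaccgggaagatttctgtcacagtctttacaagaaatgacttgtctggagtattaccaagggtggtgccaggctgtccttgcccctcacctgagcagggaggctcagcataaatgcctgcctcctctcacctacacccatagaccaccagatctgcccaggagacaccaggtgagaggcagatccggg
Saa3: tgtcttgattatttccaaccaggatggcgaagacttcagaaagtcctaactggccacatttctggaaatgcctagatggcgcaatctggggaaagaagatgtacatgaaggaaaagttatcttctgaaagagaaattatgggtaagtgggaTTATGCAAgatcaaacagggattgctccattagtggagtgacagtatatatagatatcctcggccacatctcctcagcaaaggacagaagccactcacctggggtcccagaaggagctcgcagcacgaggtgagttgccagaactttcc
Orm2: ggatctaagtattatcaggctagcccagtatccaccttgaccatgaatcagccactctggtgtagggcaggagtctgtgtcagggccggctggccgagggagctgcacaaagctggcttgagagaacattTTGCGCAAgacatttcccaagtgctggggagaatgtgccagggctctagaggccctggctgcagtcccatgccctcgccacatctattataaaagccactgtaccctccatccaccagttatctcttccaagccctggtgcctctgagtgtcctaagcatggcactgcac

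The Saa1 and Saa2 promoters were 95.3% identical over their alignment, with the match at positions -182 and -183 relative to the start. Saa3 was 49.5% identical to Saa1 and held its match, on the other strand, at -99. The match was at -216 in Lcn2 and at -120 in Orm2, whose promoter was 86.2% identical to that of Orm3.

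The first comparison asked which acute phase genes differ between A3B and control livers of the kallisto set. All 10 had a positive fold change, and Lcn2 was the single member that passed the test (edgeR, adjusted p under 0.05). Of all 17376 genes tested 1.25% were called higher and 2.41% lower. The median log2 fold change of the 10 was 2.04, beside 0.21 over all genes tested, and 1.82 to 2.63 with 1 liver left out. Together the members made up 1.31% to 4.74% of all TPM in A3B livers and 0.681% and 0.763% in control livers.

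Lcn2 encodes lipocalin 2, which binds the siderophores that bacteria use to take up iron. It was at 1525 TPM in A3B liver 44, 2299 in 137, 1447 in 49, 2768 in 125, 490.3 in 48 and 1489 in 153, and at 12.8 and 5.21 TPM in control livers 45 and 168. Every A3B liver was far above both controls, and liver 48 was apart from the other A3B livers at the low end. The log2 fold change was 7.21 (SE 0.88, n = 6 and 2), with an adjusted p of 0.00527 in edgeR's quasi-likelihood test, and it ranked 80 from the top of 17376 genes. Without control liver 168, which leaves 1 control, it was 6.71 with an adjusted p of 0.0734, and over all genes the 218 higher and 418 lower calls became 3 and 70. Without control liver 45 they became 10 and 64.

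**Figure D1:**
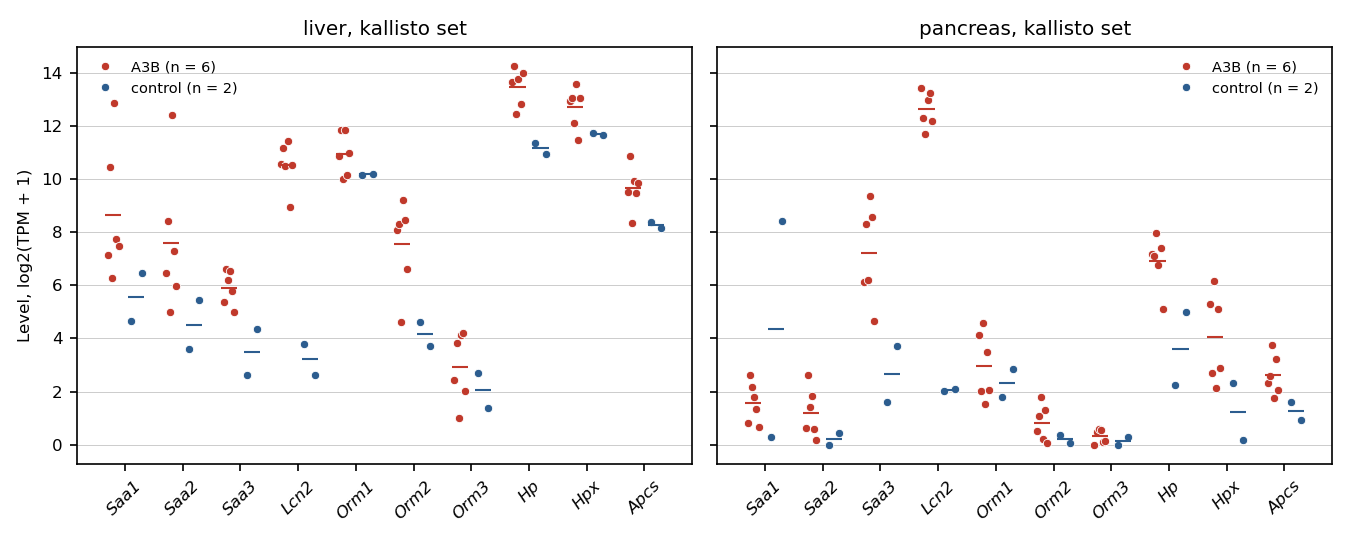
Level of the 10 genes as log2(TPM + 1) in each liver (left) and pancreas (right) of the kallisto set, with A3B samples in red, controls in blue and bars at group means. Lcn2 lies between 490.3 and 11171 TPM in the 12 A3B samples and between 3.01 and 12.8 TPM in the 4 control samples, and Saa1 of control pancreas 168 stands alone at 344.2 TPM.

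The serum amyloid A proteins are apolipoproteins of high-density lipoprotein, and in mouse Saa1 and Saa2 are the main hepatic forms. Saa1 was at 142.0, 1397, 75.7, 7397, 215.7 and 176.6 TPM in A3B livers 44, 137, 49, 125, 48 and 153, and at 24.4 and 87.6 TPM in controls 45 and 168. The highest A3B liver was 97.7-fold above the lowest, and liver 49 lay below control 168. The log2 fold change of 4.42 (SE 2.24) did not pass the test (adjusted p = 0.273), and it was 2.35 without A3B liver 125 and 5.73 without control 168. Saa2 was at 31.1 to 5534 TPM in A3B livers, lowest in 49 and highest in 125, against 11.0 and 42.7 TPM, and had a log2 fold change of 4.90 (SE 2.60, adjusted p = 0.294), which was 1.86 without liver 125 and 6.33 without control 168. The ratio of Saa1 to Saa2 was 1.34 to 4.04 in A3B livers and 2.05 and 2.22 in controls. With the counts of both copies summed, the log2 fold change was 4.60 (SE 2.33, adjusted p = 0.272).

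Saa3, the form known from macrophages and adipose tissue, was at 30.5 to 98.1 TPM in A3B livers (median 62.8) and at 5.09 and 19.5 TPM in controls. The groups did not overlap, and the log2 fold change was 1.99 (SE 0.69, adjusted p = 0.131), with 1.18 without control 45 and 3.38 without control 168. Its spread over A3B livers was 3.21-fold, against the 97.7-fold spread of Saa1. Liver 49, lowest for Saa1 and Saa2, held 71.7 TPM of Saa3, above the median.

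Orosomucoids, or alpha-1-acid glycoproteins, are plasma carriers of lipophilic molecules. Orm1 was the most abundant, at 1020 to 3720 TPM in A3B livers against 1155 and 1165 TPM, and its log2 fold change was 0.61 (SE 0.59, adjusted p = 0.570), with 0.31 without liver 125. Orm2 was at 270.6, 319.8, 23.7, 589.2, 349.2 and 96.0 TPM in A3B livers 44, 137, 49, 125, 48 and 153, and at 23.5 and 12.1 TPM in controls. The other A3B livers were well above both controls and liver 49 was level with control 45. Its log2 fold change was 3.70 (SE 1.15, adjusted p = 0.101). Without liver 49 the log2 fold change was 3.87, with an adjusted p of 0.0206. Orm3 was at 0.99 to 17.2 TPM against 1.61 and 5.49 TPM (log2 fold change 1.22, SE 1.10, adjusted p = 0.539, with 0.57 without control 168 and 2.05 without control 45). Orm1 made up 75.9% to 97.6% of the summed Orm level in A3B livers and 97.6% and 98.8% in controls.

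Hp and Hpx encode haptoglobin and hemopexin, which bind free haemoglobin and haem. Hp was at 12826, 19725, 5613, 13952, 7277 and 16199 TPM in A3B livers 44, 137, 49, 125, 48 and 153 and at 2662 and 1982 TPM in controls. The groups did not overlap, and the log2 fold change was 2.09 (SE 0.64, adjusted p = 0.0970). Without liver 49 it was 2.18 with an adjusted p of 0.0297. Hp was at 13952 to 19725 TPM in the 3 A3B livers with Ddx3y and at 5613 to 12826 TPM in the 3 without it, and among the controls the liver with Ddx3y had the lower value. Hpx was at 2846 to 12367 TPM against 3213 and 3393 TPM, with liver 48 below both controls (log2 fold change 0.80, SE 0.59, adjusted p = 0.445, with 0.48 without liver 125). Apcs, the gene of serum amyloid P, a pentraxin, was at 325.0 to 1881 TPM against 285.5 and 333.6 TPM, with 5 of 6 A3B livers above both controls (log2 fold change 1.26, SE 0.62, adjusted p = 0.258).

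A3B livers thus ranked unevenly over the members. Liver 125 was highest for 6 of the 10 and liver 49 lowest for 7. Saa3, Lcn2, Orm2 and Hp were above both controls in all 6 A3B livers in TPM, as were 24.3% of all genes tested. After scaling by trimmed mean of M-values (TMM) this held for Saa3, Lcn2 and Hp, beside 15.0% of all genes. DESeq2 on the same counts called Saa3 (1.91), Orm2 (3.64) and Hp (2.02) higher besides Lcn2 (7.15), and it called 1302 genes higher and 1099 lower where edgeR called 218 and 418. Scaling by total counts moved the median of all genes to 0.67, gave 878 genes higher and 241 lower, and called Hp (2.50) besides Lcn2 (7.62).

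Markers of hepatocytes, leukocytes and adipocytes were read beside these values. The summed level of 12 hepatocyte markers was 35127 to 83933 TPM in A3B livers and 97542 and 145525 TPM in controls. Of these 12 markers 1 was called lower, Cyp3a11 (-2.78, adjusted p = 0.0259). The 14 neutrophil markers summed to 8.24 to 129.7 TPM in A3B livers and 4.62 and 7.58 TPM in controls, with none of the 12 tested called, 11 of them positive and a median of 2.01, beside 0.21 over all genes. Ly6g was at 0.04 to 0.29 TPM in A3B livers and at 0 and 0.02 TPM in controls. The calprotectin gene S100a8 was at 35.0 TPM in A3B liver 49 and 13.7 TPM in 125 and at 1.19 to 3.47 TPM in the other 6 livers. Macrophage markers summed to 49.7 to 1834 TPM in A3B livers and 562.5 and 640.1 TPM in controls, with 0 of 14 called by edgeR, 6 of them positive and a median of -0.01. Adipocyte markers summed to 64.9 to 300.2 TPM in A3B livers and 21.8 and 34.0 TPM in controls, so these groups did not overlap either. All 10 adipocyte markers tested had a positive fold change, with a median of 1.47, and the lipid droplet gene Plin4 (4.94, adjusted p = 0.0238) was the one called. The defining adipocyte gene Adipoq was at 0 to 1.51 TPM in A3B livers and at 0.21 and 0.03 TPM in controls. In bulk samples fewer cells of a type and less RNA per cell cannot be told apart, and the part of other cell types in these results was not tested.

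The second comparison asked whether the same genes differ in the pancreas. Lcn2 was called higher and Saa1 lower in A3B pancreas, where edgeR called 17.0% of 19142 genes higher and 14.9% lower. The median log2 fold change of the members was 0.03, beside 0.09 over all genes. Single libraries moved this median, to 1.36 without control 168 (0.31 over all genes), to 0.72 without control 45 and to -0.29 without A3B pancreas 53, and with the near-identical copies summed it was 0.75. TMM factors were 1.30 to 1.79 in A3B and 0.21 and 0.44 in control pancreases. Scaling by total counts instead moved the median of all genes to 2.29 and gave 13483 genes higher and 210 lower, against 3252 and 2848.

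Lcn2 was at 11171, 5061, 3348, 8193, 9820 and 4709 TPM in A3B pancreases 44, 53, 49, 125, 137 and 153 and at 3.01 and 3.28 TPM in controls 45 and 168. No other member was higher by as much, and Lcn2 alone took up to 1.12% of all TPM in A3B pancreas. On the TMM scale it was at 1251 to 5681 CPM (counts scaled to the library total) against 10.5 and 4.98 CPM, and the log2 fold change was 8.81 (SE 0.97, adjusted p = 0.000265). It ranked 57 from the top of 19142 genes and was called in each of the 8 fits that left out 1 pancreas, with log2 fold changes of 8.38 to 9.45.

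**Figure D2:**
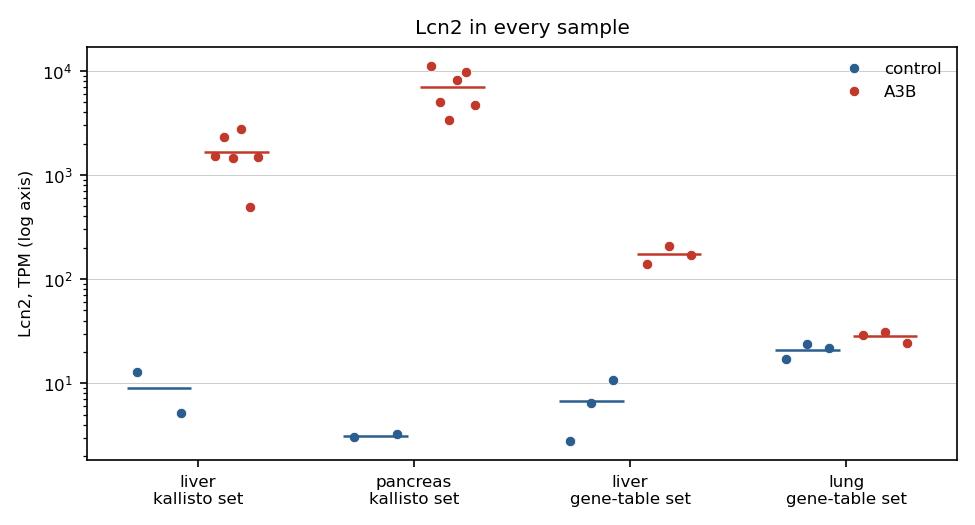
Lcn2 in TPM on a log axis in all 28 samples, by tissue and set, with A3B samples in red, controls in blue and bars at group means. The groups are wide apart in liver and pancreas, whereas A3B lungs at 24.4 to 31.3 TPM lie just above control lungs at 17.3 to 24.0 TPM.

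Saa3 was at 68.7, 317.8, 72.1, 665.2, 377.2 and 24.0 TPM in A3B pancreases 44, 53, 49, 125, 137 and 153 and at 2.05 and 12.1 TPM in controls. Saa3, Lcn2, Hp and Apcs were above both controls in all 6 A3B pancreases in TPM, as were 70.8% of all genes tested, and after TMM scaling Lcn2 alone of the members was, beside 25.1% of all genes. On the TMM scale Saa3 of pancreas 153 (6.42 CPM) fell between the controls (4.49 and 10.0 CPM). The log2 fold change was 3.13 (SE 1.42, adjusted p = 0.131 with edgeR). DESeq2 called Saa3 higher (3.10, adjusted p = 0.0287). Hp was at 33.9 to 251.3 TPM against 3.73 and 30.7 TPM, with a log2 fold change of 1.11 (SE 0.65, adjusted p = 0.221), which was 0.49 without control 45 and 2.31 without control 168. With total counts as the scale Saa3 (5.13), Hp (3.07) and Apcs (1.94) were called higher besides Lcn2 (11.13), beside the shift of 2.29 in the median gene.

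Saa1 was at 0.77, 5.15, 3.52, 2.43, 1.56 and 0.57 TPM in A3B pancreases 44, 53, 49, 125, 137 and 153, at 0.23 TPM in control 45 and at 344.2 TPM in control 168. That 1 control library therefore set the call. The log2 fold change was -7.93 (adjusted p = 0.00665) with it and 0.41 (adjusted p = 0.798) without it. Control pancreas 168 held 13414 estimated counts of Saa1 and 25.3 of Saa2, a TPM ratio of 948.3, where the ratio was 0.94 to 4.75 in A3B pancreases and 1.34 to 4.04 in A3B livers. The liver of the same mouse had a ratio of 2.05. Pancreas 168 also had 45.4 TPM of the adipocyte gene Adipoq and 6.10 TPM of the neutrophil gene Ly6g, against 1.94 and 0 TPM in control 45. Adipoq was also at 36.4 TPM in A3B pancreas 53 and at 20.0 TPM in 49, where Saa1 was at 5.15 and 3.52 TPM, and Ly6g was at 0.60 TPM or less in all 6 A3B pancreases. S100a8 was at 14.1 TPM in control 168 and 2.96 TPM in control 45. Ltf was at 0 and 0.19 TPM in these controls, and Mmp8 was at 0 TPM in both. T cell markers summed to 2.67 and 102.6 TPM in the control pancreases, B and plasma cell markers to 66.3 and 528.2 TPM. Macrophage markers summed to 52.1 and 586.7 TPM there. In A3B pancreases these lists reached 243.6, 1376 and 6472 TPM. The part of adipocyte, neutrophil and other leukocyte RNA in the Saa1 value was not tested.

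The remaining members were low in pancreas. Hpx was at 3.43 to 71.6 TPM in A3B pancreases and at 3.997 and 0.11 TPM in controls, Orm1 at 1.86 to 22.9 against 2.50 and 6.14 TPM, and Apcs at 2.39 to 12.3 against 2.04 and 0.93 TPM. Saa2 did not exceed 5.09 TPM, Orm2 2.43 TPM and Orm3 0.50 TPM in any pancreas. None of these 6 passed the test with TMM, where their log2 fold changes were between -1.08 and 0.75. Orm1 stayed between -1.40 and -0.87 in the 8 fits that left out 1 pancreas, whereas the other 5 moved further when 1 control was left out. Without control 168 Saa2 was at 8.51, Orm3 at 6.27, Orm2 at -1.37, Apcs at -1.41 and Hpx at -0.23, and without control 45 Hpx was at 6.10, Orm2 at 2.81, Apcs at 0.94, Saa2 at -0.44 and Orm3 at -1.50, none of them past the test. With total counts as the scale the signs of Orm1, Orm2, Orm3 and Apcs turned positive. Saa2 and Orm3 had 0 counts in control 45, so their values without control 168 depend on the prior count of the fit and are no bound.

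Hpx and Orm1 were highest in the 3 pancreases with the most albumin RNA (Alb), A3B 44, 49 and 137. Alb was at 633.5 TPM in A3B pancreas 44 and 453.6 TPM in 49, where Hpx was at 37.9 and 71.6 TPM, and at 10.4 TPM in 53 and 19.1 TPM in 125, where Hpx was at 5.47 and 3.43 TPM. Control 45 had 32.7 TPM of Alb and control 168 had 1.19 TPM. Of 12 hepatocyte markers 0 were called by edgeR, with summed levels of 130.3 to 1024 TPM in A3B and 56.9 and 72.5 TPM in control pancreas. The part of hepatocyte RNA in the levels of these members was not tested.

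Lcn2 was highest in pancreases 44, 137 and 125 and lowest in 49. Of these, 44, 137 and 49 are the pancreases with the most Alb. Of 13 neutrophil markers tested 4 were called, Mmp8, Ltf (4.35) and Csf3r (2.20) higher and Ly6g lower. These are 23.1% higher and 7.69% lower, beside 17.0% and 14.9% of all genes, which is also the background for the lists below. Of the 13, 6 had a positive fold change, with a median of -0.02 beside 0.09 over all genes. Mmp8 was at 0 in both controls and at 0.24 to 1.53 TPM in A3B pancreases. Ly6g was at 0 in control 45 and at 6.10 TPM in control 168, with 0.21 to 0.60 TPM in A3B pancreases between them. Ltf was at 4.75 to 11.1 TPM in A3B pancreases and at 0.19 and 0 TPM in controls 45 and 168. Of 14 macrophage markers 9 were higher, Cd68 at 95.7 to 236.1 TPM against 1.11 and 3.89 TPM, and 7 of 12 ductal markers were higher. Of 12 fibroblast markers 7 were higher and 1 lower, with a median of 1.58 and a summed level of 1077 to 1779 TPM against 64.0 and 248.1 TPM, and Col1a1 at 3.04. Of 12 endocrine markers 4 were lower, among them Iapp (-1.91) and Ins1 (-1.79), with a median of -1.29. Of 12 acinar markers 11 were lower, with a summed level of 85086 to 215840 TPM in A3B and 444314 and 446432 TPM in control pancreas. Median fold changes were also negative for adipocyte markers (-1.28, 4 of 12 positive) and T cell markers (-1.20, 1 of 12). The same held for B and plasma cell markers (-1.49, 3 of 12) and mesothelial markers (-1.60, 1 of 8). The part of these shifts in the Lcn2 result was not tested.

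**Figure D3:**
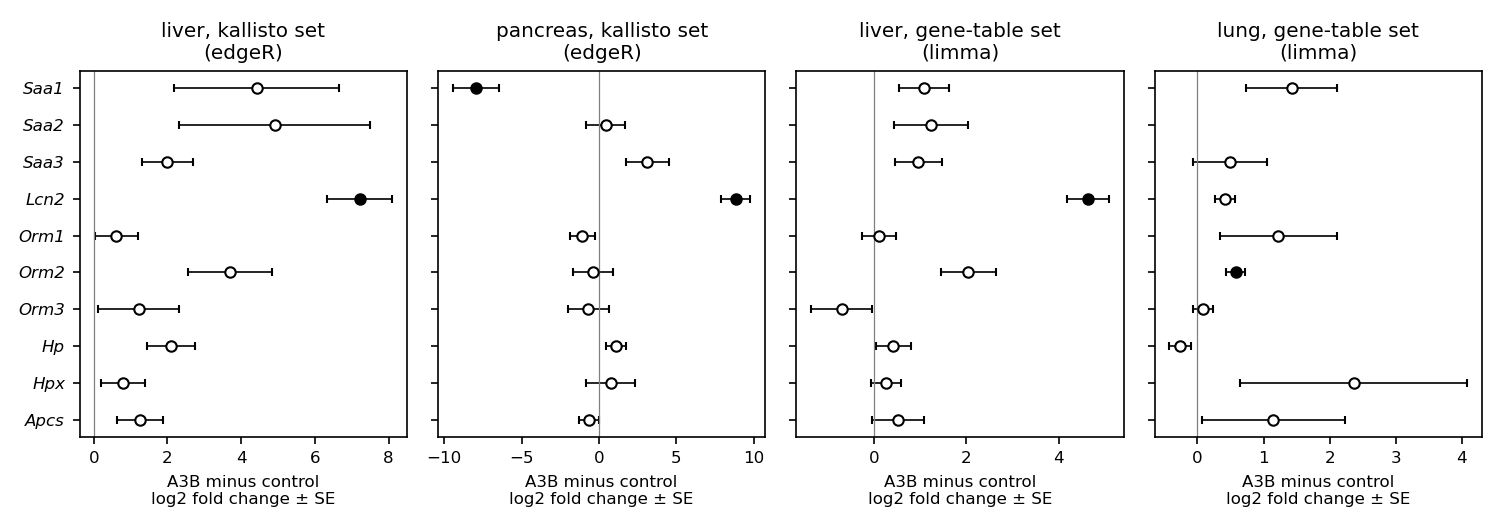
Log2 fold change of A3B against control for each gene in the 4 comparisons, with bars of 1 SE, where filled points passed an adjusted p of 0.05 and open points did not. Lcn2 is filled in both livers and the pancreas, Saa1 in the pancreas (-7.93, set by control 168) and Orm2 in the lung (0.58).

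The liver comparison was repeated in the gene-table set, whose TPM values come from another counting pipeline and are not set against those of the kallisto set. Lcn2 was again the single member called, and 6.07% of 11507 genes were higher and 1.86% lower in limma. Lcn2 was at 139.7, 209.7 and 169.9 TPM in A3B livers 23, 28 and 70 and at 2.77, 6.47 and 10.8 TPM in control livers 11, 91 and 92. All A3B values were at least an order above the controls, and the log2 fold change on the log2(TPM + 1) scale was 4.63 (SE 0.45, n = 3 and 3, adjusted p = 0.0109 with limma), which ranked 6 from the top of 11507 genes. Without control liver 91 it was 4.68 with an adjusted p of 0.0722, and over all genes the 699 higher and 214 lower calls became 1 and 0. Without control liver 92 they became 7 and 2.

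Markers of other cell types were read beside Lcn2 in these livers too. The adipocyte list summed to 692.2 to 829.1 TPM in A3B livers and 30.4 to 31.6 TPM in controls, with 2 of 5 tested called higher, the lipid droplet genes Cidec (4.56) and Plin4 (5.91). The defining adipocyte gene Adipoq was at 0.042 TPM or less in all 6 livers, and Cfd, Lep and Lipe were listed at 0. Neutrophil markers summed to 14.5 to 145.8 TPM against 11.1 to 24.4 TPM. Of these 0 of 6 were called by limma, with 5 of them positive and a median of 1.56, beside 0.39 over all genes. S100a8 was at 4.24 to 70.1 TPM against 1.06 to 3.97 TPM. Ly6g went the other way without overlap, at 2.85 to 5.66 TPM in A3B livers and 7.58 to 14.8 TPM in controls. Macrophage markers summed to 470.2 to 1359 TPM against 877.8 to 1175 TPM. Of 13 macrophage markers tested 2 had a positive fold change, with a median of -0.71, and 1 was called, Marco (1.58, higher). Hepatocyte markers summed to 6499 to 9628 TPM against 10809 to 11772 TPM, with 0 of 12 called by limma. The part of the neutrophil, macrophage and hepatocyte markers and of the lipid droplet genes in the Lcn2 result was not tested.

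Orm2 was the other member whose groups did not overlap, as held for 28.5% of genes tested. It was at 306.0, 77.8 and 322.4 TPM in A3B livers 23, 28 and 70 and at 29.8, 54.8 and 63.5 TPM in controls 11, 91 and 92. The log2 fold change was 2.05 (SE 0.60, adjusted p = 0.0715), and 2.71 without A3B liver 28 (adjusted p = 0.0171). Liver 28 was lowest for Orm2 and highest for Saa1, at 764.7 TPM, where A3B livers 23 and 70 had 204.8 and 371.5 TPM and controls 293.7, 157.3 and 130.7 TPM.

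The other 8 members did not pass the test. Log2 fold changes were 1.09 for Saa1, 1.23 for Saa2, 0.97 for Saa3, 0.42 for Hp, 0.52 for Apcs, 0.26 for Hpx, 0.12 for Orm1 and -0.69 for Orm3. With 1 liver left out, Saa1 ran from 0.60 to 1.54, Saa2 from 0.40 to 2.10 and Saa3 from 0.59 to 1.56, all highest without A3B liver 23, with Saa1 and Saa2 lowest without 28 and Saa3 without 70. Orm3 ran from -1.47 without control 11 to -0.11 without 92, Apcs from -0.05 without control 11 to 1.04 without 91, and Orm1 from -0.15 without control 11 to 0.30 without A3B liver 70. Hp and Hpx were lowest without A3B liver 70 (0.18 and 0.06) and highest without 28 (0.78 and 0.44). The median over the members was 0.74, beside 0.39 over all genes, and 0.44 without A3B liver 70 to 1.11 without 23. Centring each sample on its median gene brought the latter to -0.07 and turned 699 higher and 214 lower genes into 271 and 458, with Lcn2 still called and Orm1, Hp and Hpx at -0.34, -0.04 and -0.19. Control liver 11, the one labelled with both transgenes and the one with Ddx3y, was lowest of the controls for 7 members and highest for Saa1, Saa2 and Saa3.

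**Figure D4:**
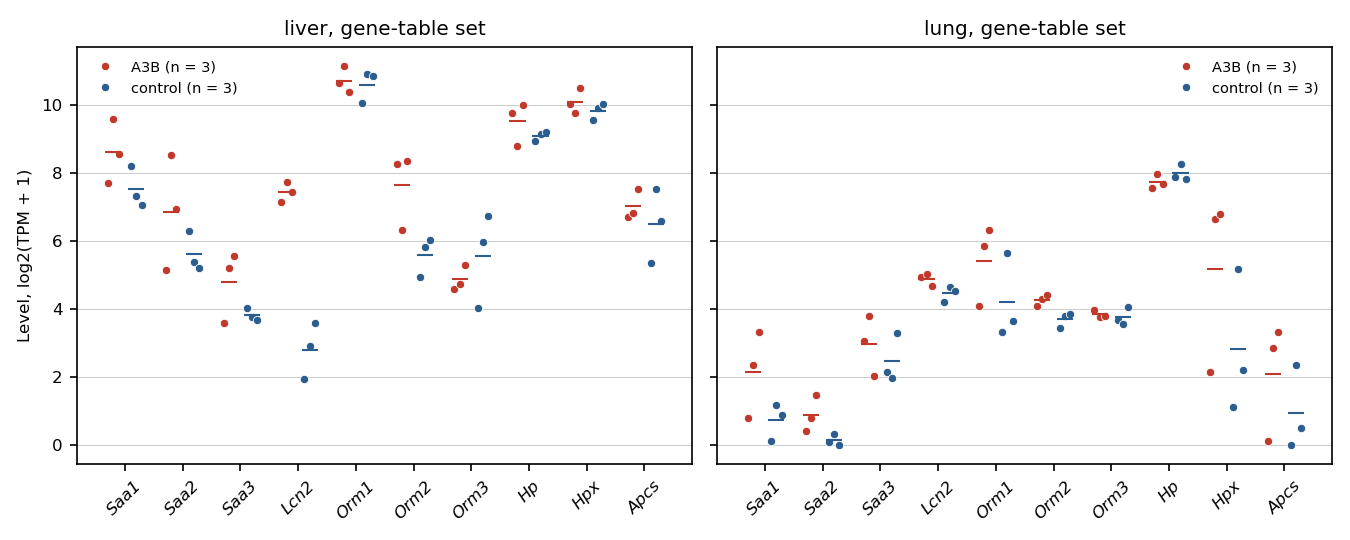
Level of the 10 genes as log2(TPM + 1) in each liver (left) and lung (right) of the gene-table set, with A3B samples in red, controls in blue and bars at group means. In liver Lcn2 and Orm2 separate the groups, and in lung the A3B and control values of most members lie close together or overlap.

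In lung 8 of the 9 members tested had a positive fold change, with a median of 0.58, beside -0.06 over all genes, and 0.45 without control lung 87 to 0.91 without 91. Orm2 was the single member called, beside 16.1% of 13651 genes called higher and 20.8% called lower. It was at 16.04, 18.6 and 20.2 TPM in A3B lungs 69, 70 and 74 and at 9.76, 12.9 and 13.2 TPM in control lungs 87, 88 and 91, a log2 fold change of 0.58 (SE 0.14, n = 3 and 3, adjusted p = 0.0221 with limma). The call was lost without A3B lung 70 (0.57, adjusted p = 0.0669) and without 74 (0.51, adjusted p = 0.0634). Lcn2 was at 29.2, 31.3 and 24.4 TPM in A3B lungs and at 17.3, 24.0 and 21.8 TPM in controls. The highest control and the lowest A3B lung nearly met, and the log2 fold change of 0.42 (SE 0.15) had an adjusted p of 0.0702. Orm2, Lcn2 and Saa2 did not overlap between the groups, as held for 23.3% of genes tested, and Saa2 was under 2 TPM in all lungs and was not tested.

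Hp, with 185.1 to 246.1 TPM in A3B and 224.3 to 303.4 TPM in control lungs, was the most abundant member there (log2 fold change -0.26, SE 0.16, adjusted p = 0.229, with -0.13 without control 88). Saa3 was at 3.08 to 12.7 TPM against 2.88 to 8.81 TPM (0.49, adjusted p = 0.523, with 0.08 without A3B lung 70 and 0.96 without 74), and Orm3 at 12.5 to 14.4 against 10.7 to 15.7 TPM (0.08, adjusted p = 0.713, with -0.02 without control 88 and 0.23 without 91).

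Hpx, Orm1, Apcs and Saa1 were highest in the 3 lungs with the most Alb, which are 2 A3B lungs and 1 control. Alb was at 245.0 TPM in control lung 88, 189.8 in A3B lung 70 and 216.4 in A3B lung 74, and at 0.33, 23.6 and 3.83 TPM in control lungs 87 and 91 and A3B lung 69. Hpx was at 34.7, 97.6 and 108.5 TPM in the first 3 of these lungs and at 1.15, 3.54 and 3.402 TPM in the other 3. Saa1 was at 1.25, 4.04 and 8.85 TPM in the first 3 and at 0.078, 0.81 and 0.72 TPM in the other 3. For Hpx the log2 fold change was 2.36 with an SE of 1.72 (adjusted p = 0.325), and those of Orm1, Apcs and Saa1 were 1.22, 1.15 and 1.42 with SEs of 0.88, 1.09 and 0.69. With 1 lung left out Hpx ran from 1.51 to 3.88, lowest without control 87 and highest without A3B lung 69. Likewise Apcs ran from 0.53 without A3B lung 74 to 2.14 without 69, Orm1 from 0.77 without 74 to 1.95 without control 88, and Saa1 from 0.84 without 74 to 2.10 without 69. Saa1 was called without A3B lung 69 (2.10, adjusted p = 0.0298), which leaves the 2 A3B lungs with high Alb. With lungs 88, 70 and 74 left out, a choice made after seeing the data that leaves 1 A3B lung assumed to vary like the controls, 0 of the 7 members still tested were called, and Orm2 was at 0.46 (adjusted p = 0.243). Over all genes the 2191 higher and 2838 lower calls became 328 and 298. At an unadjusted p under 0.05, 2 of the 9 members tested in all 6 lungs passed, beside 48.8% of all genes. Of 11 hepatocyte markers tested in lung 0 were called by limma, with 10 positive and a median of 1.16, beside -0.06 over all genes.

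Markers of other cell types were read beside the lung values. All 10 neutrophil markers tested had a positive fold change, with a median of 0.81, and Mmp8 (1.74, adjusted p = 0.0266) and Ngp (1.71, adjusted p = 0.0314) were called higher, 20% of the list beside 16.1% of all genes. Mmp8 was at 8.50 to 28.5 TPM in A3B lungs and 2.72 to 4.68 TPM in controls, and the list summed to 199.5 to 556.8 TPM against 154.0 to 228.8 TPM. Of 14 macrophage markers 12 were positive, with a median of 0.56, Marco (1.40) and Mrc1 (0.82) higher (14.3%) and Lyz2 (-0.51) lower. Of 10 adipocyte markers 9 were positive, with a median of 0.83 and Plin4 (2.16) higher (10%). T cell and B cell lists went the other way, with 2 of 10 T cell markers positive, a median of -0.55 and Cd2 (-0.60) lower, and 2 of 8 B and plasma cell markers positive with a median of -0.88 and 0 called by limma. The part of hepatocyte, leukocyte and adipocyte RNA in the values of Orm2, Lcn2 and the other members in lung was not tested.

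**Figure D5:**
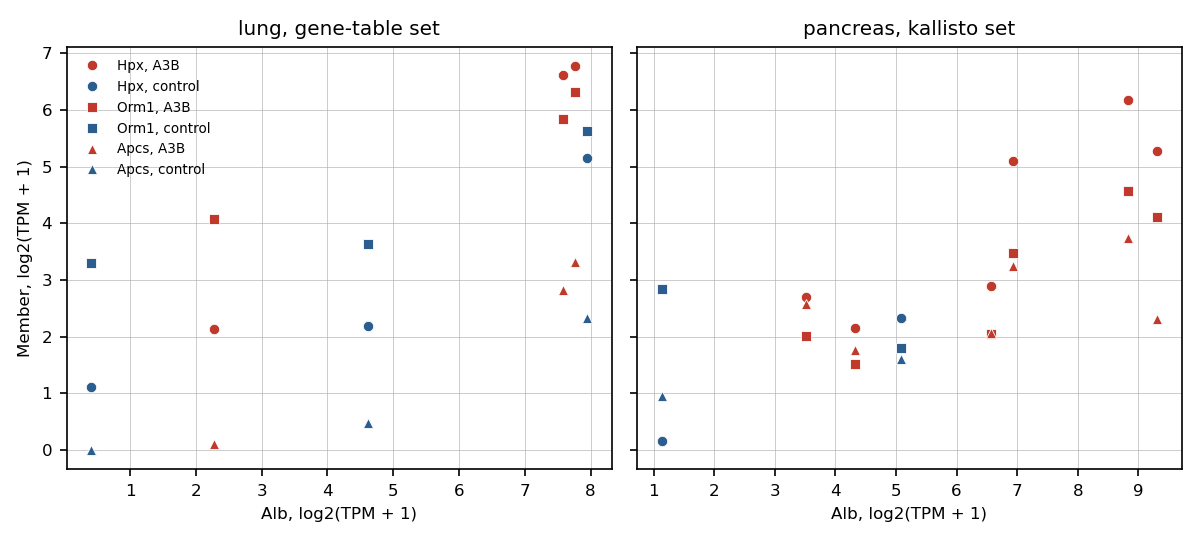
Hpx, Orm1 and Apcs against Alb, both as log2(TPM + 1), in each lung (left) and pancreas (right), with A3B samples in red and controls in blue. The 3 lungs with Alb at 189.8 to 245.0 TPM, 2 A3B and 1 control, hold the highest levels of all 3 genes.

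The effect of A3B was then compared between tissues with an interaction term. Between lung and liver of the gene-table set Lcn2 was the single member called, with a smaller effect in lung (-4.21 on the log2 scale, SE 0.50, adjusted p = 0.00262 with limma), among 8.81% of 13477 genes with a lower and 1.94% with a higher effect in lung. It was called in all 12 fits that left out 1 sample and with the mouse as a block (2 mice gave both tissues). The transgene was at 705 to 1705 TPM in A3B livers and 90.6 to 281 TPM in A3B lungs. A3B livers 23 and 28 were taken at 14 days, and liver 70 and the A3B lungs at 10 days. Tissue and transgene level cannot be told apart in this difference, and time differs in part as well. Between pancreas and liver of the kallisto set edgeR called 6.87% of 19927 genes with a higher and 5.02% with a lower effect in pancreas, and Saa1 was the single member among them (-12.22, SE 3.38, adjusted p = 0.0311). That value rests on control pancreas 168: without it the difference was -3.83 (adjusted p = 0.412), and with the mouse as a block it was -7.95 (adjusted p = 0.148). Without control liver 45 or 168 it was -11.51 and -13.60 (adjusted p = 0.188 and 0.141). For Lcn2 the effect in pancreas was 1.76 larger (SE 0.92, adjusted p = 0.219), and 3.51 larger with total counts as the scale (adjusted p = 0.00416), where 7848 genes had a higher and 223 a lower effect.

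Genes around the members in the same response were read from 5 lists, whose counts stand beside 1.25% of all genes called higher in the kallisto livers, 17.0% in pancreas, 6.07% in the gene-table livers and 16.1% in lung. Of 24 other positive acute phase genes 2 were higher in A3B livers of the kallisto set, Il1rn (2.69, adjusted p = 0.0177), the interleukin-1 receptor antagonist, and the metallothionein Mt2 (3.05, adjusted p = 0.0453). Crp had -1.94 (adjusted p = 0.0534). The list's median was -0.11, beside 0.21 over all genes. In pancreas 8 of the 24 were higher and none lower, led by the ferroxidase Cp (2.49), the lipopolysaccharide receptor Cd14 (3.24) and Lbp (3.31), and all 24 had a positive fold change, with a median of 1.38 beside 0.09 over all genes. In the livers of the gene-table set 0 of 24 were called by limma, with Cd14 at 2.29 (adjusted p = 0.0537), Steap4 at 1.29 and Serpina1a at -1.16, and a median of -0.08 beside 0.39 over all genes. In lung 4 of 24 were higher, with Mt2 at 2.69, Mt1 at 1.63 and Cd14 at 0.99, a share of 16.7% that is near the 16.1% of all genes. All 24 had a positive fold change in lung, with a median of 0.85 beside -0.06 over all genes.

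Of 14 negative acute phase genes 2 were lower in the kallisto livers, beside 2.41% of all genes. They were Serpina6, the corticosteroid carrier, at -4.59 (17.01 ± 10.7 TPM, SD, in 6 A3B livers against 342.7 TPM on average in controls, adjusted p = 0.0205) and transferrin, Trf, at -1.94 (adjusted p = 0.0487), and Gc had -1.71 (adjusted p = 0.0674). Of the 14, 1 had a positive fold change, with a median of -1.18. The livers of the gene-table set likewise gave 1 positive fold change of 14 and a median of -0.90 with 0 called by limma, among them Ttr at -1.08, Serpina6 at -5.24 and Apom at -1.53. Hepatocyte markers, of which Alb, Apoa1 and Ttr are also in this list, had a median of -0.69 in the kallisto livers and of -0.53 in the gene-table livers, with 3 of 12 positive in each, and their part in these values was not tested. In pancreas Serpina6 was higher (6.15, adjusted p = 0.00337), with Trf at 1.54 and Pon1 at -1.94 not past the test. The list had a median of 0.97 there, with 10 of 14 positive. In lung 0 of 14 were called by limma, with 12 positive and a median of 0.50.

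Among 22 cytokines and receptors upstream, the leukaemia inhibitory factor receptor Lifr was lower in both liver sets (-3.29, adjusted p = 0.00372, and -2.61, adjusted p = 0.0220). In the kallisto livers Il1rap (-1.64) and Il1r1 (2.29) did not pass, and in the gene-table livers Il1r1 (3.04) and Il22ra1 (2.67) were higher. In pancreas 7 of 20 tested were higher and none lower, with the cytokine Lif at 4.02 (5.41 to 11.2 TPM against 0.155 and 0.156 TPM) and the tumour necrosis factor receptors Tnfrsf1a at 2.34 and Tnfrsf1b at 2.39. In lung 2 of 14 were higher, Il6ra (1.30) and Ifngr1 (0.52), a share of 14.3% that is below that of all genes, and Il6st had 0.39 (adjusted p = 0.0593). The medians of the list were 0.52 in the kallisto livers, 0.86 in pancreas, 1.02 in the gene-table livers and -0.04 in lung.

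Of 24 signal transducers and transcription factors, the C/EBP family gene Cebpd was higher in both liver sets (2.06, adjusted p = 0.0232, and 2.80, adjusted p = 0.0196), in pancreas (1.54, adjusted p = 0.00769) and in lung (0.89, adjusted p = 0.0115). It was the single gene of the list called in the kallisto livers, where Bcl3 had -1.13 and Nfkbiz 1.47, and in the gene-table livers Nfkbiz (1.65) and Stat3 (1.36) were higher as well. In pancreas 12 of 24 were higher and none lower, with the feedback inhibitor Socs3 at 3.20, Cebpb at 2.22 and the NF-kB subunit Rela at 1.46. In lung 7 of 23 were higher and none lower, with Tnfaip3 at 1.39 and Stat3 at 0.74. The medians were 0.30 in the kallisto livers, 0.99 in pancreas, 0.68 in the gene-table livers and 0.32 in lung.

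Receptors and clearance genes of the members were the fifth list. In the kallisto livers 0 of 16 were called by edgeR, the fatty acid and serum amyloid receptor Cd36 having 2.87 (adjusted p = 0.0503), Lrp1 -1.35 and Fcgr2b -1.16. In the gene-table livers Cd36 was higher (3.10, adjusted p = 0.0227), with Cd163 at 1.40 and Hmox1 at 1.56 not past the test. In pancreas 10 of 16 were higher, with the Fc receptor Fcgr1 at 4.41, Tlr2 at 2.14 and haem oxygenase Hmox1 at 2.84, and 1 was lower, Slc22a17, a receptor described for lipocalin 2, at -2.18. In TPM Slc22a17 was at 1.36 to 5.87 in A3B pancreases and at 2.75 and 3.22 in controls, and the groups overlapped. In lung Slc22a17 (-0.64) and Blvra (-0.44) were lower and Cd163 (1.04) and Lrp1 (0.61) higher. The medians were 0.02 in the kallisto livers, 2.15 in pancreas, 0.19 in the gene-table livers and -0.17 in lung.

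The genes most like 2 members were read by Pearson's r of log2 CPM, as a description over 8 samples that share groups and libraries. For Saa1 over the livers these were Slc7a6os (r = 0.984), Saa2 (0.981), Bag5 (0.960), Fam53a (0.960) and Eif4ebp3 (0.960), among 6845 genes averaging 10 TPM or more. Saa2 shares reads with Saa1, and Eif4ebp3 ranged from 46.9 to 1647 TPM. For Lcn2 over the pancreases they were Btg2 (0.996), Socs6 (0.996), Abraxas2 (0.994), Rab11fip5 (0.994) and Zwint (0.993) among 6626 genes. Btg2 averaged 390.7 TPM in A3B and 10.4 TPM in control pancreases, so these values mainly reflect the distance between the groups.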

How the data were processed

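RNA-seq of 28 mouse samples was used in 2 sets that were never compared in level. For the kallisto set the authors quantified each library with kallisto against mm10 transcripts and deposited estimated counts and TPM per transcript, with no replicates pooled. Of 119414 transcripts 116728 were matched to 35928 symbols of GENCODE M21 and summed per gene. For the gene-table set the deposited values are TPM per gene, made by the authors with GenomicAlignments and GenomicFeatures, with column names that mark duplicates as removed. Their depth is unknown. The submitters' notes name GRCm38 and mm10. Removal of duplicates can lower the level of very abundant genes, and copies that share sequence can exchange estimated counts.

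Summed estimated counts were rounded and tested within each tissue with edgeR 4.0.16 (quasi-likelihood, robust, filterByExpr, TMM), and log2(TPM + 1) of genes averaging 1 TPM or more with limma 3.58.1 (trend, robust), in R 4.3.3. All tests were two-sided, and p-values were adjusted over all genes tested by Benjamini-Hochberg with a threshold of 0.05. Differences between tissues were interaction terms over all samples of a set. Alternatives were DESeq2 1.42.0, scaling by total counts, limma on TPM, summed copies, a pseudocount of 0.1 TPM, centring, no filter, the mouse as a block, and each replicate left out. The lungs left out and the Ddx3y covariate were added after seeing the data. Scripts were tested on simulated data, and Python 3.11.15, pandas 2.3.3, matplotlib 3.10.9 and biopython 1.88 were used.

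All 10 members were described in each comparison, with up to 3 genes of smallest p from each pathway list, markers where a result turned on them, and the 5 genes most like Saa1 and Lcn2. The members and lists were chosen with earlier results of these data known. Livers and pancreases of mice 44, 45, 49, 125, 137, 153 and 168, and livers and lungs of 70 and 91, come from the same animals, which is where the pairing comes from. The correlation of their deviations from group means was between -0.0044 and 0.28. No libraries were identical. Samples of a group are different mice.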

Additional observations from a re-analysis of the deposited data

Results flagged for a closer look

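Among A3B livers of the kallisto set, Lcn2 of liver 48 stood apart on the log2(TPM + 1) scale, at 8.94 where the next liver was at 10.50 and the highest at 11.44. The gap to its neighbour over the whole range was 0.6252 on that scale, just above Dixon's critical value for 6 samples, and 0.420 in TPM, below it. Of 20 groups looked at, 1 stood out in this way, and chance gives about 1 in 20. In TPM, Saa1 and Saa2 of A3B liver 125 were past the value instead, with gaps of 0.820 and 0.943.

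The A3B effect on Saa1 differed between pancreas and liver by -12.22 on the log2 scale in edgeR's interaction test, and without control pancreas 168 by -3.83, with an adjusted p of 0.412. The A3B effect on Lcn2 differed between lung and liver by -4.214 in limma's interaction test, where tissue and transgene level cannot be told apart.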

How the results depend on the processing

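Of 796 refits of single members, 728 kept their direction and side of the threshold, 11 lost a call, 18 gained one and 39 turned sign. Most members were not called in the main fits, so the 728 say little about the calls. Members called in kallisto livers (1) became 2 with total counts, 4 with DESeq2 and 2 with limma on TPM, and 0 to 3 with 1 replicate left out. In pancreas (2) they became 5 with total counts and 4 with limma on TPM, and 1 to 2. In gene-table livers (1) they were 0 to 2, and in lung (1) 0 to 2, and 0 without lungs 88, 70 and 74. For pancreas minus liver (1) they became 2 with total counts, 0 with no filter and 0 with the mouse as a replicate block, and 0 to 1. For lung minus liver (1) they were 1 with the block and 1 to 3. The block changed no other call.

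Signs turned in pancreas with total counts for Orm1 (1.11), Orm2 (2.35), Orm3 (1.27) and Apcs (1.94), with limma on TPM (0.64, 0.60, 0.17 and 1.34), and for Orm2 with the Ddx3y covariate (0.087). They turned with centring in gene-table livers for Orm1 (-0.34), Hp (-0.036) and Hpx (-0.19), for pancreas minus liver with total counts for Orm1 (0.11), Hp (0.57) and Apcs (0.28), and for lung minus liver with the smaller pseudocount for Saa2 (1.06). With 1 replicate left out, pancreas values ran from -8.91 to 0.41 for Saa1, -0.44 to 8.51 for Saa2, -1.37 to 2.81 for Orm2, -1.50 to 6.27 for Orm3, -0.23 to 6.10 for Hpx and -1.41 to 0.94 for Apcs. In gene-table livers they ran from -0.15 to 0.30 for Orm1 and -0.045 to 1.04 for Apcs, and in lung from -0.024 to 0.23 for Orm3. For pancreas minus liver they ran from -5.92 to 3.51 for Saa2, -0.18 to 2.02 for Saa3, -2.72 to 4.95 for Orm3, -1.45 to 0.41 for Hp and -0.82 to 5.46 for Hpx, and for lung minus liver from -0.24 to 1.02 for Saa1 and -1.35 to 0.35 for Saa2. The cause was not tested. Counts of all genes higher and lower were 1368 and 1001 for pancreas minus liver, 1844 and 1919 with DESeq2 and 1129 and 486 with the block, 261 and 1187 for lung minus liver and 454 and 2153 with the block, 699 and 214 in gene-table livers and 39 and 15 with no filter, 3252 and 2848 in pancreas and 12739 and 188 with limma on TPM, and 218 and 418 in kallisto livers and 183 and 390 with the Ddx3y covariate. With 2 controls in each kallisto tissue, leaving out 1 leaves a lone control assumed to vary like the A3B samples.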
